A study of Homo sapiens with 24 samples.

Results

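KAT2A and KAT2B are paralogous lysine acetyltransferases, each able to serve as the catalytic subunit of the SAGA and ATAC coactivator complexes, which acetylate histone H3. Here their combined knockdown, labelled KAT2AB_KD, was set against the control labelled NT in nTERT-1 cells, a telomerase-immortalized human keratinocyte line, before the cells were differentiated. The members are 8 RNA-seq libraries of the 24 in the series: 4 of KAT2AB_KD, with 2 from Subconfluent and 2 from Confluent cultures, and 4 of NT, with 2 from each of the same stages. The other libraries used are 4 of KAT2A_KD and 4 of KAT2B_KD at these stages, and the single knockdowns after differentiation (day 4 in the deposited sample table). Every library, NT included, carries the treatment label keratinocyte differentiation. The labels give neither the knockdown reagent nor the kind of control, and do not say whether libraries of one group came from separate cultures, so p-values measure the spread between these libraries, which may be technical.

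Each of the 8 libraries held between 10918154 and 15550650 counted reads over 26364 genes. The level of a gene is given as counts scaled to the library total (CPM). Lists of 4 values run Subconfluent 1 and 2, then Confluent 1 and 2. A log2 fold change is KAT2AB_KD over NT with stage as a covariate, ± its standard error (SE), and a gene is called when edgeR's quasi-likelihood test gave a Benjamini-Hochberg adjusted p under 0.05 over the 14660 genes tested. The first principal component, with 36.1% of the variance, had the 4 KAT2AB_KD libraries on one side and the 4 NT libraries on the other. The second, with 25%, set apart KAT2AB_KD Confluent 2 at one end and NT Subconfluent 1 at the other. All 13 keratinocyte markers had reads in every library, with a summed level between 33120 and 52470 CPM in KAT2AB_KD libraries and between 27520 and 50040 CPM in NT libraries.

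Both targeted genes were lower in KAT2AB_KD. KAT2A had 8.29 and 10.4 CPM at Subconfluent and 7.35 and 1.67 CPM at Confluent in KAT2AB_KD libraries, against 30.1 and 32.7 CPM at Subconfluent and 38.5 and 36.4 CPM at Confluent in NT libraries. Every KAT2AB_KD library lay below every NT library (log2 fold change -2.35 ± 0.36 SE, adjusted p = 0.0023). KAT2B had 1.92, 1.19, 2.96 and 0.902 CPM in KAT2AB_KD libraries, against 4.76, 5.58, 4.32 and 4.06 CPM in NT libraries. The groups again did not overlap (log2 fold change -1.38 ± 0.36 SE, adjusted p = 0.0414), but the call was kept in only 1 of the 8 fits that each left out 1 library, with adjusted p up to 0.129. In the single knockdowns KAT2A had 3.46, 4.12, 4.0 and 5.06 CPM in KAT2A_KD libraries, and KAT2B had 0.152, 1.04, 0.668 and 1.25 CPM in KAT2B_KD libraries. KAT2A did not differ detectably between KAT2AB_KD and KAT2A_KD (log2 fold change 0.77 ± 0.34 SE, adjusted p = 0.707), nor KAT2B between KAT2AB_KD and KAT2B_KD (log2 fold change 1.19 ± 0.43 SE, adjusted p = 0.109).

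**Figure D1:**
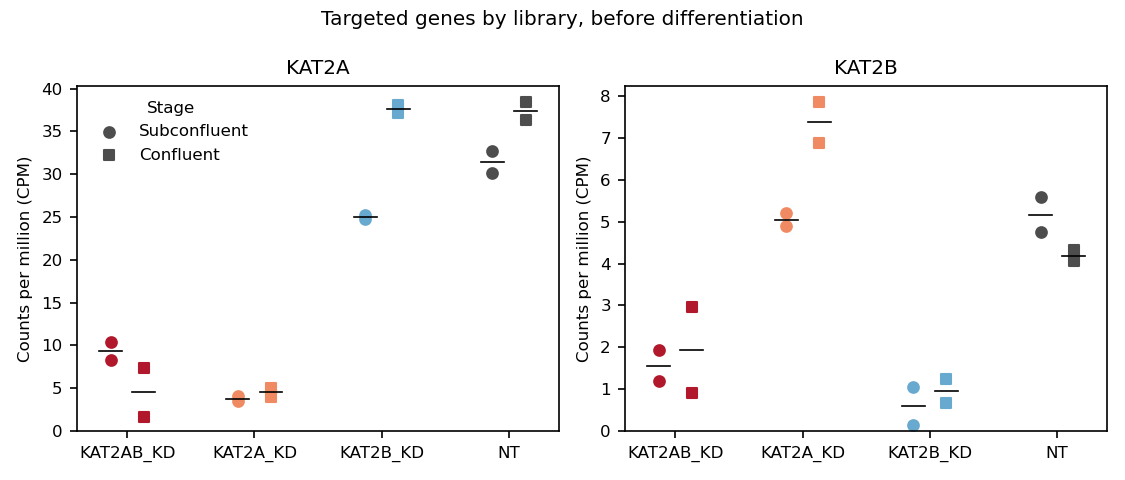
CPM of KAT2A (left) and KAT2B (right) in each library before differentiation, by genotype; circles are Subconfluent and squares Confluent libraries, and bars are the means of 2 libraries. KAT2A lies between 1.67 and 10.4 CPM in KAT2AB_KD and between 30.1 and 38.5 CPM in NT; KAT2B lies between 0.902 and 2.96 CPM in KAT2AB_KD and between 4.06 and 5.58 CPM in NT.

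In KAT2AB_KD, 892 genes were called, 6.08% of those tested: 559 were higher than in NT (3.81%) and 333 lower (2.27%). The higher genes moved further, with a median log2 fold change of 1.37 and 397 genes at 1 or more, against a median of -0.80 and 124 genes at -1 or less among the lower ones. Over all genes tested the median was 0.00391. The groups did not overlap within either stage for 880 of the called genes (98.7%; 19.2% of all genes tested), and all 4 KAT2AB_KD libraries lay on one side of all 4 NT libraries for 681 (76.3%; 10.9% of all). The count moved with single libraries: it was 461 without KAT2AB_KD Subconfluent 1, 562 without NT Subconfluent 2, 455 without NT Confluent 1, 541 without KAT2AB_KD Subconfluent 2 and 547 without NT Confluent 2. Without either library that stood apart it was 1225 (KAT2AB_KD Confluent 2 left out) and 890 (NT Subconfluent 1 left out). Of the 892 genes, 365 were called whichever library was left out.

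The furthest-raised genes included receptors and enzymes that NT keratinocytes hardly expressed. ROR2, a WNT5A receptor tyrosine kinase, had 6.83, 5.52, 5.18 and 6.04 CPM in KAT2AB_KD libraries, against 0.0661, 0.0859, 0 and 0 CPM in NT libraries. This is 376 reads against 2, a ratio of 156.5 over the scaled library totals, with a 95% counting interval between 43.0 and 1297 (adjusted p = 1.45e-05, edgeR). LCP1, the actin-bundling protein L-plastin, had 27.7, 22.4, 22.4 and 22.4 CPM in KAT2AB_KD libraries, against 0.859, 2.75, 0.942 and 1.78 CPM in NT libraries (log2 fold change 3.94 ± 0.30 SE, adjusted p = 1.66e-05). HSD17B3, a steroid 17-beta dehydrogenase, had 6.63, 8.21, 11 and 20.3 CPM in KAT2AB_KD libraries, against 0.463, 0, 1.41 and 0.712 CPM in NT libraries (log2 fold change 4.22 ± 0.42 SE, adjusted p = 0.000124). In each of these genes the lowest KAT2AB_KD library was above the highest NT library. The monocarboxylate transporter SLC16A7 (log2 fold change 3.88 ± 0.40 SE, adjusted p = 0.000141), the receptor tyrosine kinase ROS1 (log2 fold change 3.29 ± 0.31 SE, adjusted p = 7.88e-05), the serine protease TMPRSS13 (log2 fold change 3.55 ± 0.49 SE, adjusted p = 0.00116) and the collagen gene COL5A3 (log2 fold change 3.26 ± 0.58 SE, adjusted p = 0.00523) rose as well.

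At the other end stood ANPEP, the membrane aminopeptidase CD13. It had 0.0663, 0.439, 0 and 0 CPM in KAT2AB_KD libraries, against 20.2, 13.7, 6.60 and 4.20 CPM in NT libraries (log2 fold change -6.43 ± 0.50 SE, adjusted p = 1.66e-05). QPCT, glutaminyl-peptide cyclotransferase, had 0.0663, 0.251, 0.264 and 0.0694 CPM in KAT2AB_KD libraries, against 3.37, 2.32, 3.06 and 4.98 CPM in NT libraries (log2 fold change -4.26 ± 0.50 SE, adjusted p = 0.000386). No KAT2AB_KD library reached the lowest NT library in either gene. LRRC61 (log2 fold change -4.33 ± 0.58 SE, adjusted p = 0.000972), FAM50A (log2 fold change -3.39 ± 0.33 SE, adjusted p = 0.000103), FAM167A (log2 fold change -2.68 ± 0.28 SE, adjusted p = 0.000173) and the connexin gene GJA5 (log2 fold change -2.73 ± 0.39 SE, adjusted p = 0.00141) fell too, each without overlap between the groups.

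As keratinocytes leave the basal layer they switch on, in order, the spinous, granular and cornified programmes, in which structural proteins are cross-linked by transglutaminases into the cornified envelope. Members of all these lists were higher in KAT2AB_KD in cultures that had not reached the Differentiated stage. In the spinous list 15 of 25 tested members rose and 0 fell, with a median log2 fold change of 1.58, where 3.81% of all genes rose. Of the 30 listed granular and cornified envelope genes 11 rose, 0 fell, 9 were tested and not called and 10 had too few reads to be tested. Of the 27 listed SPRR and LCE genes, which encode small cross-linked envelope proteins, 10 rose, 0 fell, 3 were tested and not called and 14 had too few reads. The filter works by group, and a member near silence in NT could pass it through its KAT2AB_KD reads alone. Counts over the members that passed can therefore be tilted upward and are not read against the share over all genes. Leaving out 1 library gave 11 to 14 spinous calls and 10 SPRR and LCE calls every time, but 7 granular calls without KAT2AB_KD Subconfluent 1 and 5 without NT Confluent 1. In bulk RNA, more cells of a type and more RNA per cell cannot be told apart.

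Among spinous genes, SERPINB3, a cysteine protease inhibitor of squamous epithelium, had 17.4, 18.2, 41 and 47.7 CPM in KAT2AB_KD libraries, against 1.32, 1.12, 6.12 and 4.56 CPM in NT libraries. It was higher in every KAT2AB_KD library (log2 fold change 3.39 ± 0.21 SE, adjusted p = 5.46e-06). Its near-identical neighbour SERPINB4 moved alike (log2 fold change 3.37 ± 0.21 SE, adjusted p = 5.46e-06), and the counting may have split reads between the pair. KRTDAP, a secreted differentiation-associated peptide, had 11.6, 12, 36.6 and 34.1 CPM in KAT2AB_KD libraries, against 1.32, 0.859, 6.83 and 9.47 CPM in NT libraries (log2 fold change 2.64 ± 0.26 SE, adjusted p = 0.000121). NOTCH3, a receptor that promotes the spinous fate, had 19.6, 23.5, 61 and 28.6 CPM in KAT2AB_KD libraries, against 1.19, 1.20, 10.4 and 9.47 CPM in NT libraries (log2 fold change 2.98 ± 0.37 SE, adjusted p = 0.000581). The desmosomal cadherin DSG1 (log2 fold change 2.29 ± 0.31 SE, adjusted p = 0.00106), the calprotectin subunits S100A8 (log2 fold change 1.80 ± 0.24 SE, adjusted p = 0.000847) and S100A9 (log2 fold change 1.58 ± 0.25 SE, adjusted p = 0.00247) and suprabasin, SBSN (log2 fold change 3.65 ± 0.68 SE, adjusted p = 0.00664), were called too. SBSN missed the threshold without NT Confluent 1 (adjusted p = 0.053). Involucrin, IVL, an envelope scaffold, had 1.06, 0.815, 2.38 and 2.43 CPM in KAT2AB_KD libraries, against 0.264, 0.429, 0.550 and 0.214 CPM in NT libraries. It was called in 4 of the 8 fits that left out a library (log2 fold change 2.11 ± 0.50 SE, adjusted p = 0.0258). The keratins that mark spinous cells had smaller estimates. KRT10 had 264, 222, 413 and 396 CPM in KAT2AB_KD libraries, against 156, 163, 312 and 234 CPM in NT libraries (log2 fold change 0.60 ± 0.13 SE, adjusted p = 0.0163; called in 5 of 8 fits with a library left out). KRT1 had 262, 249, 368 and 404 CPM in KAT2AB_KD libraries, against 260.4, 284, 399 and 268 CPM in NT libraries, and was not called (log2 fold change 0.08 ± 0.15 SE, adjusted p = 0.808).

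In the granular list, sciellin (SCEL), an envelope precursor, had 24.3, 21.5, 26.7 and 26 CPM in KAT2AB_KD libraries, against 9.12, 12.1, 11.9 and 11.6 CPM in NT libraries (log2 fold change 1.15 ± 0.15 SE, adjusted p = 0.00088). Periplakin (PPL), a plakin of the envelope, had 66.9, 58.1, 102 and 56.1 CPM in KAT2AB_KD libraries, against 20.0, 13.1, 35.4 and 34.7 CPM in NT libraries (log2 fold change 1.56 ± 0.22 SE, adjusted p = 0.00152). In both genes the groups were apart. The peptidylarginine deiminase PADI3 (log2 fold change 1.31 ± 0.18 SE, adjusted p = 0.00123) and the kallikrein inhibitor SPINK5 (log2 fold change 1.93 ± 0.31 SE, adjusted p = 0.00269) rose in every fit that left out a library. ASPRV1, the protease that trims profilaggrin, was close to silent in NT: 114 reads in KAT2AB_KD libraries stood against 2 in NT libraries, a ratio of 47.5 with a counting interval between 12.8 and 396.6 (adjusted p = 0.00159, edgeR). Filaggrin itself, FLG, had 3.91, 5.83, 23.6 and 10.5 CPM in KAT2AB_KD libraries, against 3.17, 0.515, 5.65 and 2.85 CPM in NT libraries. It was called (log2 fold change 1.73 ± 0.43 SE, adjusted p = 0.0313), but in only 3 of 8 fits that left out a library. Loricrin, LOR, was among the genes with too few reads to be tested.

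SPRR1B had 37.4, 43, 98.4 and 95.9 CPM in KAT2AB_KD libraries, against 8.92, 9.36, 15.5 and 28.3 CPM in NT libraries (log2 fold change 2.16 ± 0.18 SE, adjusted p = 2.98e-05). Every KAT2AB_KD library was above every NT library, and the close copy SPRR1A behaved alike (log2 fold change 2.17 ± 0.20 SE, adjusted p = 8.05e-05). SPRR3 (log2 fold change 1.89 ± 0.26 SE, adjusted p = 0.00113), SPRR2E (log2 fold change 3.03 ± 0.49 SE, adjusted p = 0.00294) and LCE3D (log2 fold change 3.91 ± 0.71 SE, adjusted p = 0.0061) are further members of these clustered families, whose similar sequences make the split of reads between copies uncertain. LCE3D had 121 reads over the 4 KAT2AB_KD libraries and 7 over the 4 NT libraries.

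Of 28 listed lipid barrier genes 16 were tested and not called and 7 had too few reads. The filter can tilt the count of this list upward too. In all 5 rose, TGM1 of the spinous list among them, and 0 fell. They were the lipid transporter ABCA12 (log2 fold change 1.51 ± 0.22 SE, adjusted p = 0.00173), NIPAL4 (log2 fold change 1.07 ± 0.15 SE, adjusted p = 0.00112), transglutaminase 1 (log2 fold change 2.38 ± 0.37 SE, adjusted p = 0.00254 for TGM1), the cholesterol sulfotransferase SULT2B1 (log2 fold change 1.94 ± 0.43 SE, adjusted p = 0.0191) and SPTLC3 (log2 fold change 0.69 ± 0.18 SE, adjusted p = 0.0434). SULT2B1 lost its call without NT Confluent 2 (adjusted p = 0.0684), and SPTLC3 kept its call in 2 of 8 such fits. Among 23 transcription factors of differentiation, 6 rose and 1 fell, and 3 rose without NT Confluent 1 or without NT Confluent 2. ZNF750, a p63 target that drives terminal differentiation, had 3.18, 2.13, 9.89 and 9.16 CPM in KAT2AB_KD libraries, against 0.198, 0.429, 1.73 and 3.27 CPM in NT libraries (log2 fold change 2.32 ± 0.35 SE, adjusted p = 0.00197). GRHL1 (log2 fold change 1.41 ± 0.26 SE, adjusted p = 0.00625) rose as well. The rises and the fall in this list stand beside 3.81% and 2.27% of all genes. HES2, a HES family repressor, went the other way. It had 12.5, 8.90, 18.2 and 13.7 CPM in KAT2AB_KD libraries, against 27.5, 31.2, 34.5 and 35.7 CPM in NT libraries (log2 fold change -1.27 ± 0.17 SE, adjusted p = 0.000847). Of 18 Notch pathway genes NOTCH3 and LFNG rose and HES2 fell, and LFNG kept its call in 3 of 8 such fits.

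**Figure D2:**
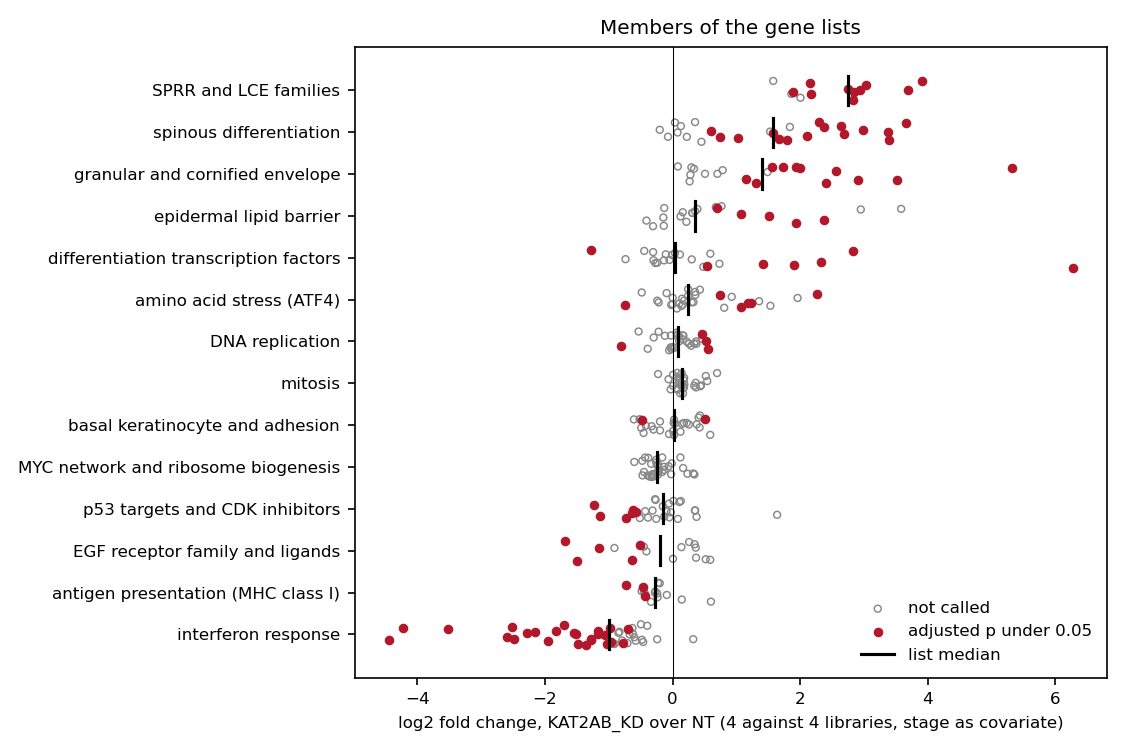
Log2 fold change (KAT2AB_KD over NT, x axis) of each tested member of 14 gene lists, 1 below another; filled points passed adjusted p under 0.05, open points did not, and black bars are list medians. The spinous list has a median of 1.58 and the interferon list one of -1.0; in the SPRR and LCE and granular lists only members that passed the filter on low counts are drawn.

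The lists were also read against differentiation, measured in libraries that do not enter the KAT2AB_KD and NT comparison: KAT2A_KD and KAT2B_KD libraries, Differentiated against Confluent. Of the 544 genes higher in KAT2AB_KD that were tested in both, 307 (56.4%) rose on differentiation of the single knockdowns and 110 (20.2%) fell. Of the 321 lower genes, 88 (27.4%) rose and 121 (37.7%) fell. Among all 14321 genes tested in both, 26.6% rose and 27.8% fell. Read the other way, 8.05% of the genes that rose on differentiation were higher in KAT2AB_KD and 2.31% were lower. Of the genes that fell on differentiation, 2.76% were higher in KAT2AB_KD and 3.04% lower.

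Calls in the proliferation, basal and growth lists are set beside all genes tested, of which 3.81% rose and 2.27% fell. The DNA replication list had 10% higher and 3.33% lower. In the mitosis list 0 of 30 members were called, with 27 of 30 estimates above 0 and a median of 0.14, and 3 rose without NT Subconfluent 1. MKI67, a proliferation marker, had 201, 185, 267 and 214 CPM in KAT2AB_KD libraries, against 214, 127, 102 and 111 CPM in NT libraries (log2 fold change 0.70 ± 0.22 SE, adjusted p = 0.0831). At Confluent alone it was called (log2 fold change 1.20 ± 0.24 SE, adjusted p = 0.0355; 3 of 8 fits with a library left out). In the DNA replication list 3 of 30 rose, the helicase subunits MCM6 (log2 fold change 0.52 ± 0.12 SE, adjusted p = 0.0205), MCM2 and MCM5, and CCNE1 fell; none of these calls held in all 8 fits with a library left out. In the MYC and ribosome biogenesis list 0 of 32 were called, with 27 of 32 estimates below 0 and a median of -0.24. Among 27 basal and adhesion genes, integrin alpha 3 fell (log2 fold change -0.48 ± 0.12 SE, adjusted p = 0.0384 for ITGA3; called in 0 of 8 such fits) and keratin KRT19 rose (log2 fold change 0.50 ± 0.14 SE, adjusted p = 0.0499; 2 of 8). Without KAT2AB_KD Confluent 1, 3 of these genes fell. Among 30 further subunits of SAGA and ATAC 0 were called, with a median of -0.03. Of 24 other acetyltransferases and deacetylases only HDAC9 was called (log2 fold change -0.69 ± 0.18 SE, adjusted p = 0.0446; 1 of 8 such fits). TP63, the master factor of the lineage, had 192, 193, 265 and 267 CPM in KAT2AB_KD libraries, against 146, 153, 169 and 159.9 CPM in NT libraries (log2 fold change 0.55 ± 0.12 SE, adjusted p = 0.0183; 4 of 8 such fits).

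Of 27 p53 targets and CDK inhibitors, 6 fell and 0 rose (2.27% of all genes fell). GADD45A, a growth-arrest gene, had 6.10, 5.58, 4.71 and 7.43 CPM in KAT2AB_KD libraries, against 11.4, 12.3, 13.2 and 16.4 CPM in NT libraries (log2 fold change -1.14 ± 0.19 SE, adjusted p = 0.0039). PLK3 (log2 fold change -1.24 ± 0.22 SE, adjusted p = 0.00457), FAS (log2 fold change -0.72 ± 0.15 SE, adjusted p = 0.0151), TIGAR (log2 fold change -0.62 ± 0.13 SE, adjusted p = 0.0124), CDKN1A (log2 fold change -0.57 ± 0.13 SE, adjusted p = 0.0218) and MDM2 (log2 fold change -0.64 ± 0.15 SE, adjusted p = 0.0258) were the others. The number that fell was 3 without KAT2AB_KD Subconfluent 1 and 2 without NT Confluent 2. Among 16 genes of EGF receptor signalling 5 fell and 0 rose, with DUSP4, a MAP kinase phosphatase, at 24.1, 27.9, 8.46 and 14.4 CPM in KAT2AB_KD libraries, against 53.9, 64.5, 56.4 and 52 CPM in NT libraries (log2 fold change -1.69 ± 0.23 SE, adjusted p = 0.00112). SPRY2, SPRY4, SPRED1 and the ligand gene TGFA made up the rest. Of the 16 estimates 8 were above 0 and 8 below 0, so the list had no single direction. Its median log2 fold change was 0.1084 within Subconfluent and -0.522 within Confluent. The number that fell was 1 without NT Confluent 1 or 2, 2 without KAT2AB_KD Subconfluent 2 and 3 without KAT2AB_KD Subconfluent 1, KAT2AB_KD Confluent 1 or NT Subconfluent 2.

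Amino acid stress genes under ATF4 were a smaller group on the higher side: 5 of 31 rose and 1 fell, where 3.81% of all genes rose. The list median was 0.48 within Subconfluent and 0.040 within Confluent. JDP2, among those that rose, is counted again in the AP-1 list below, whose medians at these stages were 0.45 and -0.089. PHGDH, the first enzyme of serine synthesis, had 154, 147, 123 and 141 CPM in KAT2AB_KD libraries, against 55.2, 65.3, 73.6 and 57.6 CPM in NT libraries, with no overlap (log2 fold change 1.18 ± 0.14 SE, adjusted p = 0.000408). Asparagine synthetase, ASNS (log2 fold change 1.23 ± 0.19 SE, adjusted p = 0.00265), and the mitochondrial folate enzyme ALDH1L2 (log2 fold change 2.27 ± 0.30 SE, adjusted p = 0.000847) also rose. These 3 genes were called whichever library was left out. Of those 8 fits 5 called 3 higher members, and the fit without KAT2AB_KD Confluent 2 called 8. The transporter SLC38A2 fell (log2 fold change -0.75 ± 0.17 SE, adjusted p = 0.0235; called in 5 of 8). EGR1, an immediate-early factor grouped with AP-1, had 65.3, 57.5, 29.8 and 26.3 CPM in KAT2AB_KD libraries, against 17.4, 17.8, 12.9 and 15.5 CPM in NT libraries (log2 fold change 1.42 ± 0.18 SE, adjusted p = 0.00075). Of the 15 AP-1 genes tested 3 rose, EGR1, FOSL2 and JDP2, and 1 rose without KAT2AB_KD Subconfluent 1 or 2, NT Subconfluent 2 or NT Confluent 1. In lipid synthesis the desaturases FADS1 (log2 fold change 0.83 ± 0.12 SE, adjusted p = 0.00123) and FADS2 (log2 fold change 0.52 ± 0.12 SE, adjusted p = 0.0223; called in 3 of 8 fits with a library left out) rose, and FDFT1, the squalene synthase (log2 fold change -0.69 ± 0.14 SE, adjusted p = 0.0128), IDI1 and SCD fell, of 31 tested. Of the 8 fits with a library left out 5 called 1 higher member and 6 called 1 lower member. The lactate exporter SLC16A3 (log2 fold change -1.73 ± 0.19 SE, adjusted p = 0.000253) and ANGPTL4 (log2 fold change -2.20 ± 0.27 SE, adjusted p = 0.000575) fell among 29 hypoxia and glycolysis genes, and NDRG1 rose (log2 fold change 1.02 ± 0.19 SE, adjusted p = 0.0082; not called without NT Confluent 1).

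Extracellular proteases and their surroundings changed in both directions. Of 23 metalloprotease and TIMP genes 4 rose (17.4%) and 3 fell (13%), where 3.81% of all genes rose and 2.27% fell. All 4 that rose encode secreted metalloproteases. MMP10, stromelysin 2, had 22.6, 22.8, 38 and 42.3 CPM in KAT2AB_KD libraries, against 4.16, 3.26, 1.81 and 2.42 CPM in NT libraries (log2 fold change 3.40 ± 0.30 SE, adjusted p = 4.52e-05). MMP1, interstitial collagenase, had 20.4, 14.9, 44.4 and 55 CPM in KAT2AB_KD libraries, against 4.29, 4.29, 5.42 and 8.83 CPM in NT libraries (log2 fold change 2.45 ± 0.22 SE, adjusted p = 6.54e-05). The lowest KAT2AB_KD library was above the highest NT library for both, and MMP3 (log2 fold change 3.31 ± 0.44 SE, adjusted p = 0.000847) and MMP13 (log2 fold change 3.06 ± 0.48 SE, adjusted p = 0.00252) rose beside them. ADAM19 (log2 fold change -1.35 ± 0.19 SE, adjusted p = 0.00134), ADAM8 (log2 fold change -0.90 ± 0.24 SE, adjusted p = 0.049) and the membrane-bound MMP14 (log2 fold change -0.68 ± 0.13 SE, adjusted p = 0.00886) fell, and 1 of the list fell without KAT2AB_KD Subconfluent 1. In the barrier stress and cytokine list 5 of 23 tested members rose and 2 fell, of 40 listed. Here too the filter can tilt the count of higher members upward, so it is not read against the share over all genes. PI3, the elastase inhibitor elafin, had 70.6, 69.7, 183 and 223 CPM in KAT2AB_KD libraries, against 5.22, 4.12, 22.1 and 53.3 CPM in NT libraries (log2 fold change 3.10 ± 0.33 SE, adjusted p = 0.000173). The related inhibitor SLPI (log2 fold change 1.81 ± 0.26 SE, adjusted p = 0.00159), IL1RN, an interleukin 1 receptor antagonist (log2 fold change 1.63 ± 0.22 SE, adjusted p = 0.00112), CXCL14 (log2 fold change 1.60 ± 0.20 SE, adjusted p = 0.000656) and IL24 (log2 fold change 2.81 ± 0.54 SE, adjusted p = 0.00873) rose, whereas the interferon-inducible chemokines CXCL11 (log2 fold change -3.78 ± 0.58 SE, adjusted p = 0.00218) and CXCL10 (log2 fold change -2.73 ± 0.69 SE, adjusted p = 0.0363; called in 3 of 8 fits with a library left out) fell.

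Among 25 mesenchymal and TGF-beta response genes 3 rose (12%) and 4 fell (16%), where 3.81% of all genes rose and 2.27% fell. The list had no single direction (median -0.15). Without KAT2AB_KD Confluent 2, 5 rose. VIM, the intermediate filament protein vimentin, had 13.4 and 13.5 CPM at Subconfluent and 8.78 and 9.30 CPM at Confluent in KAT2AB_KD libraries, against 107 and 161 CPM at Subconfluent and 75.9 and 75.5 CPM at Confluent in NT libraries. Its adjusted p was the lowest among the genes named here (log2 fold change -3.17 ± 0.16 SE, adjusted p = 1.39e-06). VIM-AS1, annotated antisense to VIM, also fell (log2 fold change -3.83 ± 0.47 SE, adjusted p = 0.000558). The library kit keeps strand, but the strand setting of the counting is not given in the sources used here. Its reads and those of VIM cannot be told apart. DES, another intermediate filament gene, had 16 reads in KAT2AB_KD libraries and 190 in NT libraries (log2 fold change -3.78 ± 0.62 SE, adjusted p = 0.00325). MFAP5, a microfibril protein, had 15.7, 15.7, 28.5 and 28 CPM in KAT2AB_KD libraries, against 73.8, 63.5, 60.6 and 77.2 CPM in NT libraries (log2 fold change -1.68 ± 0.18 SE, adjusted p = 0.000209), and LTBP2 (log2 fold change -1.60 ± 0.21 SE, adjusted p = 0.000798) and TGFBR2 (log2 fold change -0.55 ± 0.13 SE, adjusted p = 0.0218; called in 3 of 8 fits with a library left out) fell too. TAGLN, the actin-binding protein transgelin, had 23, 24, 43.2 and 59.5 CPM in KAT2AB_KD libraries, against 5.02, 5.24, 10.9 and 8.40 CPM in NT libraries (log2 fold change 2.32 ± 0.17 SE, adjusted p = 1.45e-05). TNC, the matrix glycoprotein tenascin C, had 265, 241, 292 and 174 CPM in KAT2AB_KD libraries, against 65, 47.6, 60.1 and 59.4 CPM in NT libraries (log2 fold change 2.08 ± 0.18 SE, adjusted p = 3.40e-05).

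Markers of other cell types were read beside these genes. Of 12 fibroblast markers 4 had enough reads to be tested and 3 of those rose: COL1A1 (log2 fold change 1.52 ± 0.31 SE, adjusted p = 0.0124), FBLN1 (log2 fold change 1.28 ± 0.31 SE, adjusted p = 0.0288) and COL6A3, with 65 reads against 3 (ratio 18.0, counting interval between 5.91 and 89.7). Only 1 was called without KAT2AB_KD Subconfluent 1 or NT Confluent 1. The summed level of the 12 lay between 9.92 and 16.4 CPM in KAT2AB_KD libraries and between 3.93 and 6.74 CPM in NT libraries, with 4 to 5 of the 12 at 0 in each KAT2AB_KD library and 6 to 9 at 0 in each NT library. The 9 melanocyte markers summed to between 6.94 and 17.7 CPM in KAT2AB_KD libraries and between 4.87 and 8.93 CPM in NT libraries; 1 of the 3 tested rose, MITF (log2 fold change 1.05 ± 0.21 SE, adjusted p = 0.0121; not called without KAT2AB_KD Subconfluent 1 or NT Confluent 1). The 10 immune markers summed to between 20.1 and 28.9 CPM in KAT2AB_KD libraries and between 17.3 and 19.7 CPM in NT libraries, most of it CD68, and 0 of 3 tested were called. As in the envelope lists, the filter by group can tilt counts among the tested markers upward. They are not read against the share over all genes. The part of such cells in the results above was not tested.

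**Figure D3:**
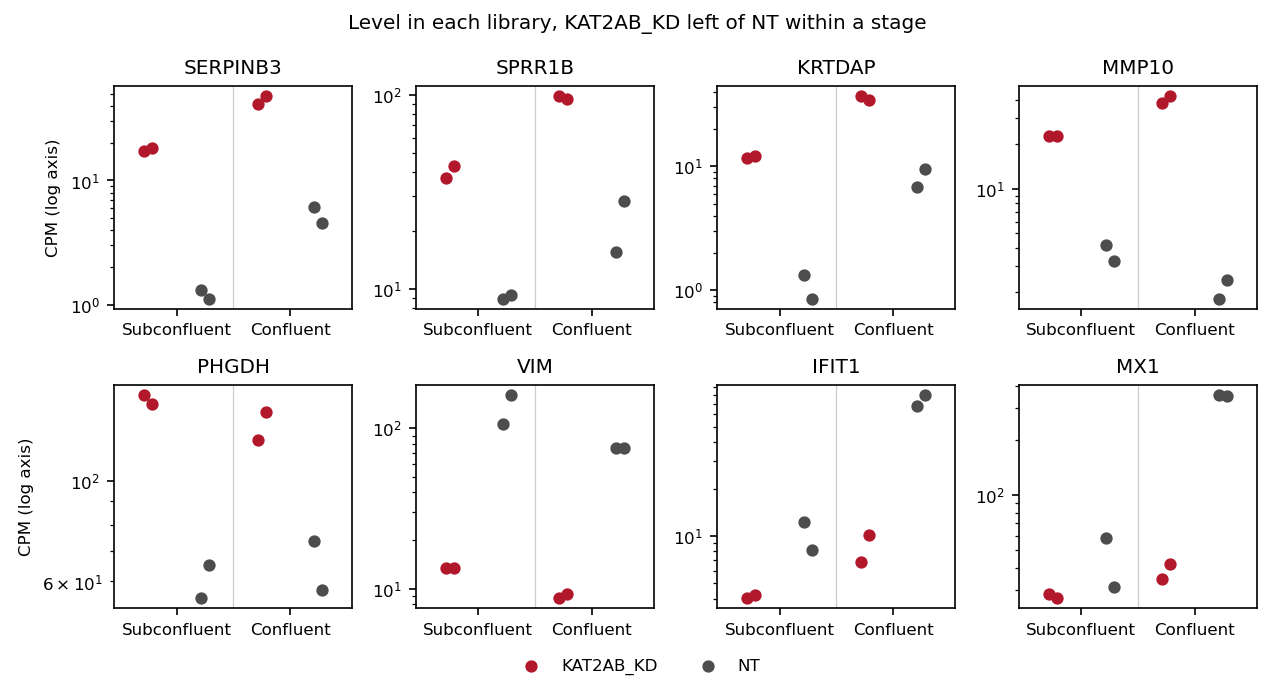
CPM (log axis) of 8 genes in each KAT2AB_KD (red) and NT (grey) library, by stage. In SERPINB3, SPRR1B, KRTDAP, MMP10 and PHGDH every KAT2AB_KD library is above every NT library, in VIM every one is below, and in IFIT1 and MX1 the distance between the groups is larger in the Confluent libraries, where NT reaches 78.9 and 353 CPM.

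Genes induced by type I interferon were lower in KAT2AB_KD. This cytokine family acts through the interferon-stimulated response element (ISRE) in the promoters of antiviral genes. Of the 42 genes in the interferon list 25 fell and 0 rose, against 2.27% of all genes that fell, and 41 of the 42 estimates were below 0 (median -1.0). The count was 15 without KAT2AB_KD Confluent 1, 14 without NT Confluent 1, 16 without NT Confluent 2, 19 without KAT2AB_KD Confluent 2 and 25 without NT Subconfluent 1. IFI44 had 2.32, 1.76, 3.81 and 3.61 CPM in KAT2AB_KD libraries, against 8.39, 6.95, 28.3 and 39.2 CPM in NT libraries (log2 fold change -2.60 ± 0.27 SE, adjusted p = 0.000173). IFIT1, which binds viral RNA ends, had 4.05, 4.20, 6.87 and 10.2 CPM in KAT2AB_KD libraries, against 12.4, 8.16, 67.4 and 78.9 CPM in NT libraries (log2 fold change -2.27 ± 0.33 SE, adjusted p = 0.00152). NT Confluent libraries were several-fold above all others in both genes. IFIT3 (log2 fold change -1.83 ± 0.27 SE, adjusted p = 0.00181), IFI44L (log2 fold change -4.45 ± 0.52 SE, adjusted p = 0.000386), RSAD2, the antiviral enzyme viperin (log2 fold change -3.51 ± 0.49 SE, adjusted p = 0.00129), CMPK2 (log2 fold change -4.23 ± 0.80 SE, adjusted p = 0.00786) and the tether BST2 (log2 fold change -2.49 ± 0.46 SE, adjusted p = 0.00686) fell whichever library was left out. OAS2 (log2 fold change -1.48 ± 0.32 SE, adjusted p = 0.0154), MX1 (log2 fold change -1.95 ± 0.44 SE, adjusted p = 0.0199), OAS1 (log2 fold change -1.36 ± 0.31 SE, adjusted p = 0.0211), ISG15 (log2 fold change -1.55 ± 0.39 SE, adjusted p = 0.0343) and IRF9 (log2 fold change -0.78 ± 0.21 SE, adjusted p = 0.0464) were called in 3 to 6 of the 8 such fits. Of 16 MHC class I presentation genes 3 fell, TAP1 (log2 fold change -0.73 ± 0.18 SE, adjusted p = 0.0303), B2M and PSME2, and 0 to 3 were called with a library left out.

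The promoters of the 4 interferon genes with the lowest p are shown to place the response element. Beside them stand those of ROR2 and HSD17B3, the 2 highest called genes whose log2 CPM averaged 1 or more. Sequences are from RefSeq on GRCh38.p14, 250 bases before to 50 after the gene start, 5′ to 3′ on the gene's strand; capitals mark GAAANNGAA or its reverse complement TTCNNTTTC, the core of the ISRE. They lie at chr1:78649539-78649838 (+ strand) for IFI44, chr1:78620198-78620497 (+ strand) for IFI44L, chr2:6865635-6865934 (+ strand) for RSAD2, chr10:89392373-89392672 (+ strand) for IFIT1, chr9:91950179-91950478 (- strand) for ROR2 and chr9:96302127-96302426 (- strand) for HSD17B3.
IFI44: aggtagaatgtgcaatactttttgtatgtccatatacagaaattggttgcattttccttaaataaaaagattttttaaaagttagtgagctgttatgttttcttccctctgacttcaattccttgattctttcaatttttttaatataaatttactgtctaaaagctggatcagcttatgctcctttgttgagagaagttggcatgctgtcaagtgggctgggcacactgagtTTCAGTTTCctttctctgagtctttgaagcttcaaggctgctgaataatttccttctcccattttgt
IFI44L: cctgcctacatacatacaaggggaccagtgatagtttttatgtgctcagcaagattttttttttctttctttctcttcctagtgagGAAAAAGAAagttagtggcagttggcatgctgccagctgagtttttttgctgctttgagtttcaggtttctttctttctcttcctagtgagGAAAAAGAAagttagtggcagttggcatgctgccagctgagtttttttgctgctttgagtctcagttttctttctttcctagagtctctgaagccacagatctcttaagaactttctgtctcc
RSAD2: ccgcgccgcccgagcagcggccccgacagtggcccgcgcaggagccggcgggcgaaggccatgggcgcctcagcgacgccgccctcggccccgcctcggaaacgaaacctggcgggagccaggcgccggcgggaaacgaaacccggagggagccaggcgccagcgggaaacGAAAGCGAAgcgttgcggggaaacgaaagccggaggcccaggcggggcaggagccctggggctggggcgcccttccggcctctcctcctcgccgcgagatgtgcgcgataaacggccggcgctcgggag
IFIT1: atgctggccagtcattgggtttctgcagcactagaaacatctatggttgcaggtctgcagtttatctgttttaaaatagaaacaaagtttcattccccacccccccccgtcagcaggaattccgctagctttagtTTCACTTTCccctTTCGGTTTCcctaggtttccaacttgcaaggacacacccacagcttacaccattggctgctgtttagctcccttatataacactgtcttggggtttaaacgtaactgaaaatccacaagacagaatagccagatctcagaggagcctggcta
ROR2: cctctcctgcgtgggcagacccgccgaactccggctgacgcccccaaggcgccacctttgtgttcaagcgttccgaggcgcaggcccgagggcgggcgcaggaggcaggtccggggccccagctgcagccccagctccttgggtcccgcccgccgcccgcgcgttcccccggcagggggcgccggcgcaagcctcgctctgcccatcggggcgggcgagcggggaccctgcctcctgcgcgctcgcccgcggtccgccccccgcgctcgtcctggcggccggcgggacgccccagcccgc
HSD17B3: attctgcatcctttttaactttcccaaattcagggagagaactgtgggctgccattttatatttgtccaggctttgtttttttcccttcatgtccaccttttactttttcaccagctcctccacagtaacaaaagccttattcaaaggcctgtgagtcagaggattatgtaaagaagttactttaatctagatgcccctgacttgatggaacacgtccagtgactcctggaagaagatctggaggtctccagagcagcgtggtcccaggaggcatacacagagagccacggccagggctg
IFI44L and IFIT1 hold 2 matches each, IFI44 and RSAD2 hold 1 each, and the windows of ROR2 and HSD17B3 hold 0.

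Over the sets, 14 of the 20 called interferon genes with a promoter in the table (70.0%) and 23 of the 34 tested ones (67.6%) held the element, against 762 of the 11172 tested genes that matched (6.82%) and 8.29% of all 27305 promoters in the table. Among lower genes outside the interferon list it was in 28 of 232 (12.1%), and among higher genes in 21 of 431 (4.87%). The AP-1 site TGANTCA, a palindrome read on both strands, was in 10 of the 31 promoters of called spinous, granular, SPRR and LCE genes (32.3%), in 46 of 431 promoters of higher genes (10.7%) and in 541 of 11172 of those tested (4.84%). The E-box CACGTG was in 5.10% of promoters of higher genes and 5.16% of lower genes, against 10.1% of those tested. The composite ATF4 site TGATGNAA, read on both strands, was in 2.78%, 1.19% and 1.77% of these sets, and the cell cycle element TTTGAA in 14.6%, 11.9% and 9.96%. Over all 27305 promoters in the table the shares were 7.76% for AP-1, 7.43% for the E-box, 3.67% for ATF4 and 15.4% for TTTGAA. For the E-box, ATF4 and TTTGAA these were above the shares in both higher and lower genes. A match is a description of the letters in the window. For AP-1, no share over all tested members of the differentiation lists was taken. Whether its 32.3% goes with their rise was not tested.

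Within single stages fewer genes passed, each comparison resting on 2 libraries a group: 261 at Subconfluent (1.78%; 182 higher, 1.24%, and 79 lower, 0.539%) and 253 at Confluent (1.73%; 134 higher, 0.914%, and 119 lower, 0.812%). The 120 genes called in the same direction at both stages were 46.0% of the Subconfluent and 47.4% of the Confluent calls, and 0 were called in opposite directions. Both lists depended on single libraries, with between 63 and 460 Subconfluent and between 60 and 335 Confluent calls when 1 was left out. In the interferon list 4 of 42 members fell at Subconfluent (median -0.48) and 29 at Confluent (median -1.65). The Subconfluent count was 0 without either KAT2AB_KD Subconfluent library, 1 without NT Subconfluent 1 or NT Confluent 2 and 2 without NT Confluent 1. The Confluent count was 14 without NT Confluent 2 and 19 without NT Confluent 1. The mean log2 CPM over the list was 3.36 and 3.33 in KAT2AB_KD Subconfluent, 3.65 and 3.66 in KAT2AB_KD Confluent, 3.95 and 3.72 in NT Subconfluent and 5.38 and 5.69 in NT Confluent libraries.

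Differentiation genes were called at both stages: 9 spinous members rose at Subconfluent and 8 at Confluent, 6 and 3 in the SPRR and LCE families, and 5 and 1 in the granular list. NOTCH3 stood at a log2 fold change of 4.18 at Subconfluent and 2.19 at Confluent, and TGM1 at 3.59 and 1.52. MMP10 stood at 2.62 and 4.25, and VIM at -3.29 and -3.05. At Confluent the spinous count was 2 without NT Confluent 1 and 4 without KAT2AB_KD Confluent 1 or NT Confluent 2, and the granular count ran from 0 to 6. The SPRR and LCE count there was 8 without either NT Subconfluent library. At Subconfluent that count was 3 without either KAT2AB_KD library of the stage or NT Subconfluent 2, and the granular count ran from 0 to 5. The difference between the stages was itself called for 0 genes by edgeR (0% of 14660), with 905 genes at an unadjusted p under 0.05 (6.17%). DESeq2 called 17, and edgeR with no filter on low counts called 75. MX1 had the smallest adjusted p, 0.227, with a difference of -2.53 ± 0.36 SE (Confluent minus Subconfluent, log2). The larger number of interferon calls at Confluent is thus not shown by this fit to be a difference between the stages, though the count depends on the setting.

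**Figure D4:**
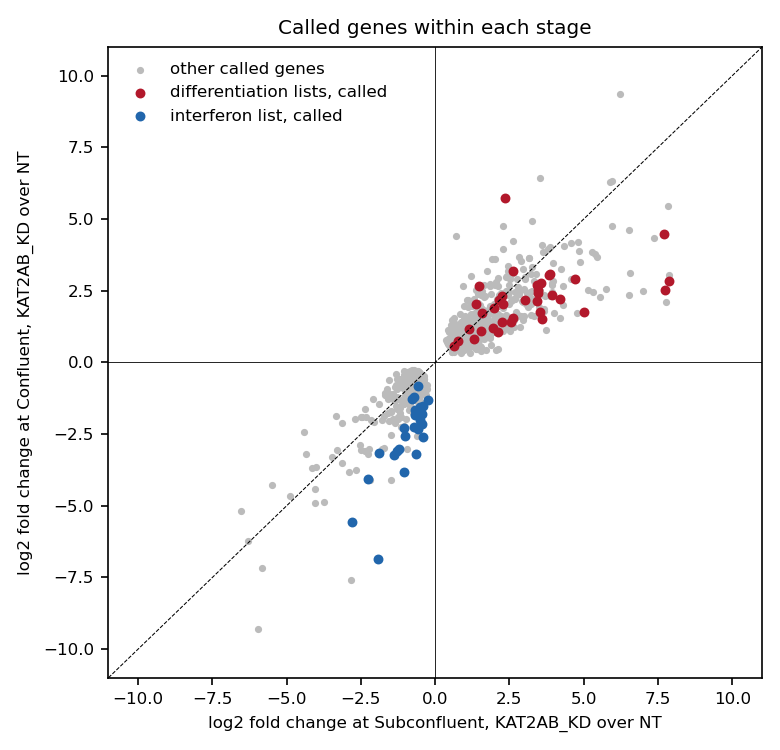
Log2 fold change of each of the 892 called genes at Subconfluent (x axis) and at Confluent (y axis), each from 2 against 2 libraries; red points are called members of the spinous, granular, SPRR and LCE lists, blue points called members of the interferon list, grey points the others, and the dashed line marks equal change. The red points lie above 0 on both axes, and the blue ones below 0 on both axes; the most extreme points belong to genes with few or 0 reads in one group, whose fitted values are not bounds.

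Set against the single knockdowns at the same 2 stages, in a fit of 16 libraries and 14971 genes, KAT2AB_KD differed from KAT2A_KD in 18 genes (0.12%; 10 higher, 0.0668%, and 8 lower, 0.0534%) and from KAT2B_KD in 1025 (6.85%; 680 higher, 4.54%, and 345 lower, 2.3%). VIM had the smallest adjusted p against KAT2A_KD among the genes named. It had 35.2, 44.6, 34 and 24.6 CPM in KAT2A_KD libraries and 291, 278, 159.6 and 160.2 CPM in KAT2B_KD libraries, beside the NT values above. KAT2AB_KD was thus below both (log2 fold change -1.63 ± 0.15 SE, adjusted p = 1.82e-05 against KAT2A_KD; log2 fold change -4.27 ± 0.16 SE, adjusted p = 1.97e-12 against KAT2B_KD). FAM50A (log2 fold change -2.51 ± 0.34 SE, adjusted p = 0.00276), QPCT (log2 fold change -3.42 ± 0.50 SE, adjusted p = 0.00455), FAM171A1 (log2 fold change -1.77 ± 0.22 SE, adjusted p = 0.00143) and GPR176, an orphan receptor (log2 fold change -0.91 ± 0.14 SE, adjusted p = 0.00567), were also lower than in KAT2A_KD. ASS1, argininosuccinate synthase, and TFPI2, a serine protease inhibitor, are named after their values were seen. ASS1 had 60.6, 63.3, 74.2 and 75.9 CPM in KAT2AB_KD, 23, 30.8, 48.3 and 29.6 CPM in KAT2A_KD, 24.2, 25.7, 51.9 and 37.2 CPM in KAT2B_KD and 13.7, 15.5, 25.5 and 22.1 CPM in NT libraries (log2 fold change 1.09 ± 0.16 SE, adjusted p = 0.00458 against KAT2A_KD). TFPI2 was lower (log2 fold change -0.99 ± 0.16 SE, adjusted p = 0.00789 against KAT2A_KD), but not without KAT2AB_KD Subconfluent 1 (adjusted p = 0.0565). TAGLN, FADS2 and HSD17B3 were higher than in KAT2A_KD and kept that call in 1 or 2 of 8 fits with a library left out.

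Between KAT2AB_KD and KAT2A_KD 0 members were called in each of the spinous, granular, SPRR and LCE and interferon lists. The log2 medians were nonetheless 0.53 for the spinous, 0.53 for the granular and 0.71 for the SPRR and LCE list. The interferon list had 0.35, and all genes had a median of 0.00896. Against KAT2B_KD, 16 of 25 spinous members were higher (median 2.35), 12 granular and 11 SPRR and LCE members were higher, and 9 of the 42 interferon genes were higher (median 0.77; 4 without KAT2AB_KD Subconfluent 1, 5 without KAT2AB_KD Subconfluent 2). Beside one another, with NT shared by all 3, the spinous list had a median of 1.55 in KAT2AB_KD, 1.01 in KAT2A_KD and -0.15 in KAT2B_KD. The interferon list had -1.05 in KAT2AB_KD, -1.35 in KAT2A_KD and -1.73 in KAT2B_KD. PI3 had 70.6, 69.7, 183 and 223 CPM in KAT2AB_KD, 29.7, 41.3, 104 and 86.9 CPM in KAT2A_KD, 0.989, 1.37, 2.15 and 9.45 CPM in KAT2B_KD and 5.22, 4.12, 22.1 and 53.3 CPM in NT libraries. SPRR1B had 22.2, 29.6, 61.9 and 42.3 CPM in KAT2A_KD and 1.60, 2.68, 6.31 and 15 CPM in KAT2B_KD libraries, where its KAT2B_KD libraries were the lowest of their stage.

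The departure of KAT2AB_KD from the sum of both single effects (KAT2AB_KD minus KAT2A_KD minus KAT2B_KD plus NT, log2) was called for 88 genes (0.588%): 73 lay above the sum (0.488%) and 15 below it (0.1%). Of the 42 interferon genes 28 lay above the sum and 0 below, with 22 to 34 when 1 of the 16 libraries was left out. MX1 had 28.5, 27.3, 34.5 and 41.9 CPM in KAT2AB_KD, 9.03, 10.2, 23.9 and 27.4 CPM in KAT2A_KD, 4.18, 5.22, 15.7 and 18.8 CPM in KAT2B_KD and 58, 31.3, 353 and 350.1 CPM in NT libraries. Each knockdown was lower than NT at Confluent, and the departure was 5.09 ± 0.50 SE (adjusted p = 2.75e-05, edgeR). The fall of MX1 in the double knockdown was thus smaller than both single falls added together. Its estimate was also smaller than either single one. Compared directly, MX1 was called higher than in KAT2B_KD (adjusted p = 0.00172, edgeR), but was not called against KAT2A_KD. NT enters each departure with a plus sign, and its MX1 level was highest at Confluent. The part of the NT Confluent level in these departures was not tested. IFIT1 (departure 4.06, adjusted p = 7.00e-05), IFI44 (4.12, adjusted p = 7.00e-05) and IFI27 (3.96, adjusted p = 7.00e-05) lay above the sum too. RSAD2, IFI44L and BST2 were also called, but all 8 of their single-knockdown libraries were under 1 CPM, and the size of their departure depends on the fit.

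Barrier genes with higher estimates in KAT2A_KD and lower ones in KAT2B_KD, each against NT, also lay above the sum. PI3 departed by 3.50 ± 0.52 SE (adjusted p = 0.00144), SLPI by 3.03 (adjusted p = 0.00249) and SPRR1B by 2.20 (adjusted p = 0.00543). S100A7, psoriasin, was called as well, with 0.228, 0, 0 and 0 CPM in KAT2B_KD libraries, and its near copy S100A7A may share its reads. In all, 4 spinous members and 2 of the SPRR and LCE families were above the sum, with 1 of those families without KAT2B_KD Confluent 1 or without NT Confluent 2. VIM had the smallest adjusted p below it (departure -2.72 ± 0.20 SE, adjusted p = 5.85e-07). It was highest in KAT2B_KD and lowest in KAT2AB_KD libraries. FAM171A1 (-2.50, adjusted p = 0.000171), QPCT (-3.40, adjusted p = 0.00887), GPR176 (-1.33, adjusted p = 0.00144) and FAM50A (-2.18, adjusted p = 0.0206) were below it too. RMRP, a noncoding RNA, was also called below the sum, but 1 KAT2A_KD library stood at 120.0 CPM with the other 3 between 3.28 and 13.1 CPM, and 10 of 16 fits with a library left out kept the call.

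**Figure D5:**
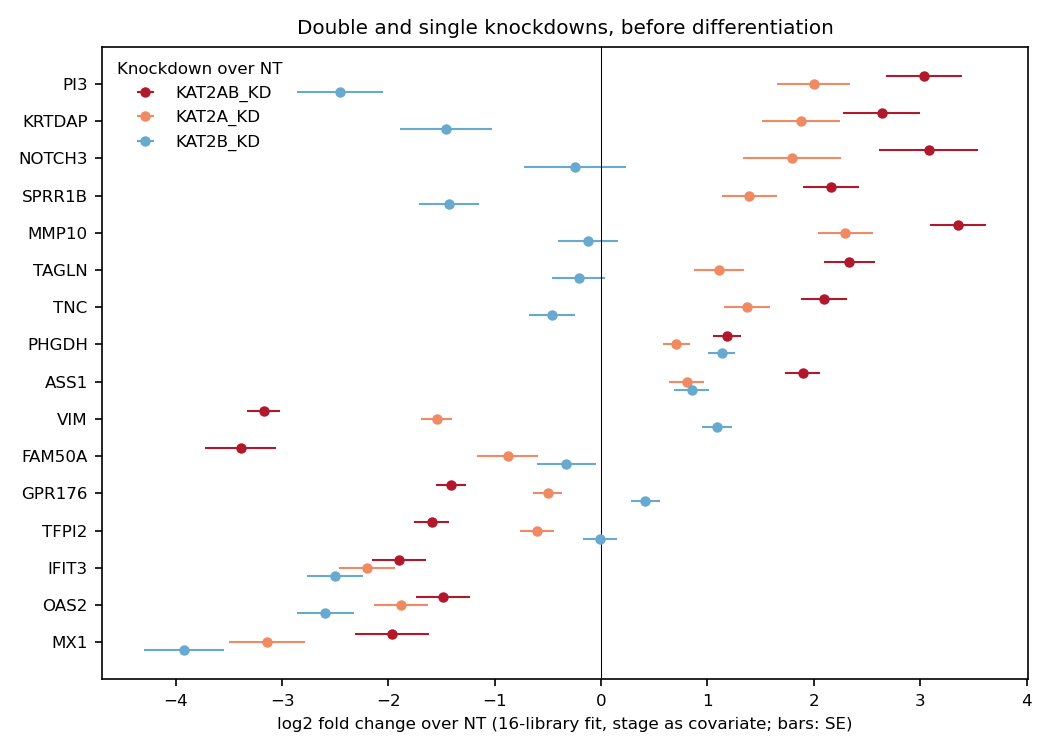
Log2 fold change over NT, with SE, of 16 genes in KAT2AB_KD, KAT2A_KD and KAT2B_KD, from 4 libraries a genotype with stage as a covariate; the 4 NT libraries are shared by all 3 estimates. VIM is at -3.17 in KAT2AB_KD, -1.55 in KAT2A_KD and 1.09 in KAT2B_KD, PI3 at 3.04, 2.0 and -2.46, and MX1 at -1.97, -3.14 and -3.92.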

How the data were processed

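Poly(A)-selected RNA of nTERT-1 keratinocytes was sequenced as single-end libraries from a directional kit, per the labels. The submitters' processing notes name FastQC, Bowtie2, featureCounts, DESeq2 and the build hg19, without versions or order. The deposited table holds raw counts per gene, which the authors did not normalize; 28 gene names were stored as dates and 1 column of the table, which matched no sample, was not used. Groups came from the genotype and time labels. The deposited sample table numbers replicates 2 and 3; libraries are called 1 and 2 here.

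Counts were tested with edgeR 4.0.16 (R 4.3.3, limma 3.58.1): TMM factors, filterByExpr by group, quasi-likelihood fits and Benjamini-Hochberg adjustment over all genes tested. The 8-library fit used 8 libraries with genotype and stage (5 residual degrees of freedom); stages and their difference came from 4 group means (4 residual degrees of freedom), and single knockdowns entered a fit of 16 libraries (11 residual degrees of freedom). Printed CPM were scaled with TMM factors over all 24 libraries. The functions were tested on simulated data. Adjusted p-values in the text are edgeR's unless DESeq2 is named. Alternatives were RLE factors, DESeq2 1.42.0, no filter on low counts, a replicate block, 16 or 24 libraries in the fit, and each library left out in turn. Where that leaves a group with 1 library, it is assumed to vary like the others.

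Named genes were the 12 highest and 12 lowest called genes whose log2 CPM averaged 1 or more and whose groups lay apart within each stage, up to 4 members of each list by p, KAT2A and KAT2B, up to 6 genes a direction for the departure from the sum, and other list members whose value is given. The members and lists were chosen with earlier results of these data known. Counting intervals are 95% exact binomial (Clopper-Pearson) and cover counting error only. Some genes that the lists hold are counted but not reported by name here.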

Additional observations from a re-analysis of the deposited data

How the results depend on the processing

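Calls of KAT2AB_KD against NT numbered 892 with RLE factors (889 shared with the fit reported), 1273 with DESeq2, 1029 in a fit of all 24 libraries, 1364 in the fit of 16 libraries and 1674 with no filter on low counts. Leaving out 1 library gave between 455 and 1225. At Subconfluent the 261 calls became 931 with no filter, 570 with DESeq2 and 425 in a fit of 24 libraries, and between 63 and 460 with a library left out. At Confluent the 253 calls became 814 with no filter and 467 with DESeq2, and between 60 and 335 with a library left out. The difference between stages was called for 0 genes, 75 with no filter, 17 with DESeq2 and between 0 and 2 with a library left out. Against KAT2A_KD the 18 calls became 173 with no filter and 75 with DESeq2, and between 13 and 23; against KAT2B_KD the 1025 calls lay between 618 and 1423 with a library left out; the 88 departures from the sum became 268 with no filter and 193 with DESeq2, and between 67 and 117. With no filter more genes are tested; the cause of the other shifts was not tested.

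No pairing by replicate number was assumed, because the labels tie them to no shared source and only 3 of the 6 correlations between groups of same-numbered deviations were over 0.1 (range -0.0963 to 0.536). With the replicate number as a block the calls numbered 1203 (all 892 among them), 572 at Subconfluent, 455 at Confluent and 3 for the difference between stages.

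Among the named genes, signs turned only in those that were not called. SOX10, at 0.17, was at -0.42 within Confluent, and between -0.21 (without KAT2AB_KD Subconfluent 2) and 0.39 with a library left out, with -0.14 without NT Subconfluent 1. RMRP, at -0.13, was at 0.32 within Subconfluent, and between -0.32 and 0.35 (without NT Confluent 1) with a library left out. KRT1, at 0.08, was at -0.070 within Subconfluent and -0.057 without NT Confluent 2. Depth limits genes near silence in 1 group, such as ROR2 in NT, to wide counting intervals.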
